A study of Mus musculus with 18 samples.

Results

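Interferon-stimulated genes are the genes that cells switch on when an interferon binds its receptor, and 44 of them were followed here in mouse liver and liver tumours. The 44 were named as a list of antiviral effectors, sensors, transcription factors, GTPases and antigen-presentation genes. A gene was examined when a probe set listing it alone read above log2 4 on at least 3 of 18 arrays, and its probe set of highest mean was used. That left 35 of the 44, among 9053 genes in all.

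The study concerned the promotion of hepatocellular carcinoma (HCC) by Tlr4, the receptor for bacterial lipopolysaccharide, and by gut bacteria, and all samples came from male mice. The Tlr4-mutant group held 5 HCC samples of C3H/HeJ mice, whose Tlr4 carries the P712H change. The antibiotic group held 3 HCC samples of wild-type (WT) C3H/HeOuJ mice that drank vancomycin at 500 mg/l together with ampicillin, metronidazole and neomycin, each at 1 g/l, starting in week 10. The WT tumour group held 7 HCC samples of C3H/HeOuJ mice without antibiotics. Every mouse of these 3 groups received diethylnitrosamine (DEN, a liver carcinogen) at 100 mg/kg in week 12, then 6 injections of the hepatotoxin CCl4 at 0.5 ml/kg between weeks 13 and 23, and was killed at 54 weeks. The normal liver group held 3 samples of untreated C3H/HeOuJ mice aged 15 weeks. The mutant tumours differ from the WT tumours in strain as well as in Tlr4, and these cannot be told apart. Separate animals are not stated for the samples of each group, and the p-values therefore reflect only how far these arrays spread, part of which may be technical.

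Type I interferons act through a receptor made of Ifnar1 and Ifnar2, and interferon-gamma through Ifngr1 and Ifngr2. Both receptors activate Janus kinases, which phosphorylate STAT proteins. The type I pathway forms a complex that contains Stat2 and Irf9 and binds the interferon-stimulated response element (ISRE) in promoters. The interferon-gamma pathway forms a STAT dimer that binds the gamma-activated site (GAS). In the liver these genes are best known from the response to hepatitis viruses.

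Promoters were looked up because the members are grouped by how their transcription is switched on. RefSeq promoter windows on the GRCm38.p6 build, from 250 bases before to 50 bases after the annotated start, were matched by symbol for 33 of the 44 genes. Oas2, Dhx58, Zbp1, Mx1, Mx2, Ifi27, Rtp4, Parp14, Usp18, Gbp6 and Iigp1 were not among them. An ISRE core, spelled as GAAA, NN and GAAA in a row on one strand or as TTTC, NN and TTTC on the other, with N any base, was found in 18 of the 33 members (54.5%), against 3.99% of the 27025 genes with a window and 3.44% of all 32851 windows. A GAS core, spelled TTCNNNGAA on both strands, was found in 11 of the 33 members (33.3%), against 9.55% of those genes and 8.3% of all windows. Such matches describe letters and are not shown to be bound. The stretches around the ISRE cores of 8 members are given 5′ to 3′ along each gene, with the cores in capitals, because they show the element and how its copies are arranged in members that hold it. In Oas1a, Irgm1 and Gbp3 a pair of cores overlaps. In Ifit1 and Ifit3 a pair is separated by other bases, and both cores read as TTTC along the gene.
Oas1a chr5:120907522-120907553 (minus strand): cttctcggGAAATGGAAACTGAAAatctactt
Ifit1 chr19:34640777-34640821 (plus strand): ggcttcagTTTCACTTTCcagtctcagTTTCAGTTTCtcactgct
Ifit3 chr19:34583365-34583424 (plus strand): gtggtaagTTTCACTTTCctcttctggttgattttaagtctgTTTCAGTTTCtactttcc
Irgm1 chr11:48871427-48871458 (minus strand): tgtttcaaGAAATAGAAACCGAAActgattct
Gbp2 chr3:142620596-142620621 (plus strand): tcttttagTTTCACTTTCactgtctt
Gbp3 chr3:142559991-142560022 (plus strand): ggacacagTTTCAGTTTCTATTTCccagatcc
Igtp chr11:58199514-58199539 (plus strand): taggaactGAAACTGAAAgctgttcg
Stat2 chr10:128270268-128270293 (plus strand): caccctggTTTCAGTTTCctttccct

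The whole window of Oas1a is given because Oas1a rose in all 3 tumour groups. The capitals mark its overlapping ISRE cores, which begin 20 and 14 bases before the annotated start.
Oas1a chr5:120907476-120907775 (minus strand): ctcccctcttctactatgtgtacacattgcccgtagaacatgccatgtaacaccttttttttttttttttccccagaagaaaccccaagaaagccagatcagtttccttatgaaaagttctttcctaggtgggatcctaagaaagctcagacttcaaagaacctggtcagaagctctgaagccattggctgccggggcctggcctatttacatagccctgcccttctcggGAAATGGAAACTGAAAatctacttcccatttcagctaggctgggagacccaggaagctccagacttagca

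Among the 27 tested members with a promoter window, 15 held an ISRE core. They included 5 of the 9 members that rose in at least 1 tumour group and 10 of the 18 that did not. The 4 risers without it in their window were Ifit2, Cmpk2, Xaf1 and Irf9.

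The arrays were alike in overall level, with medians of 6.69 to 6.85 (log2) over the kept probe sets. Within groups, arrays correlated at 0.915 to 0.994 (Pearson, across the 9053 genes), and no pair was identical. The 6 hepatocyte markers examined summed to 16.6 to 16.8 in Tlr4-mutant tumours and 16.6 to 16.7 in antibiotic tumours. The same sum was 16.3 to 16.7 in WT tumours and 16.6 to 16.7 in normal liver. It is set mostly by the brightest markers, Alb, Ttr and Apoa1, and can hide a fall of a dimmer one. Tat read 6.15 and 7.82 in WT tumours 19 and 20, against 11.27 to 11.72 in normal liver. Cps1 read 9.35 in WT tumour 19, against 13.39 to 13.41 in normal liver. None of the 6 was called in any contrast. Tlr4 itself reached at most 3.82 on any array, below the level examined here, and a single-base change would not be seen in its level. For Gapdh, the control probe set at the 3′ end exceeded the one at the 5′ end by 0.381 to 1.02 in Tlr4-mutant tumours, 0.264 to 0.530 in antibiotic tumours and 0.204 to 0.615 in WT tumours, against 1.37 to 1.61 in normal liver. The dap spike control read 1.77 to 2.22 across the 15 tumours, against 10.2 to 10.5 in normal liver. RNA quality, labelling and age therefore differ together with the tissue, and in every contrast of tumour with normal liver these cannot be told apart.

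Of the 44 genes, 9 were not examined. Oas2, Oas3, Oasl2 and Mx1 read below log2 4 on all 18 arrays, with maxima of 3.35, 2.54, 3.10 and 3.49. Mx2 and Isg20, an antiviral GTPase and an exonuclease, exceeded log2 4 on 1 array each, at 4.26 and 4.12. Oas1g, Ifi44 and Isg15 had no probe set to themselves. 

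**Figure D1:**
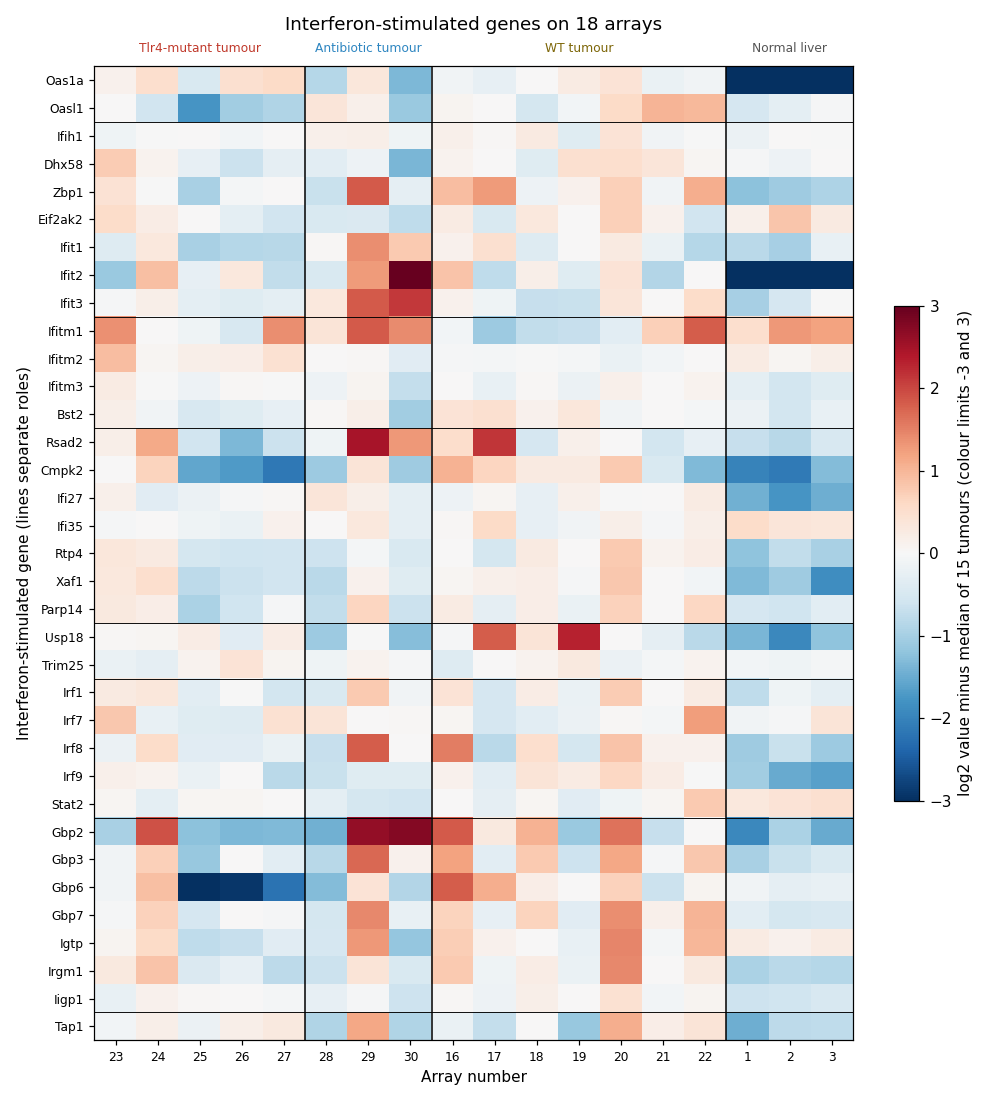
Log2 level of the 35 interferon-stimulated genes (rows, ordered by role) on the 18 arrays (columns), as the difference from the gene's median over the 15 tumours. Colours stop at -3 and 3. The normal livers are lowest for Oas1a and Ifit2, and the median deviation over the genes is 0.50 in WT tumour 20 and 0.35 in antibiotic tumour 29.

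Tumours of all 3 groups were compared with normal liver to see which members separate the tissues. In Tlr4-mutant tumours 6 of 35 members (17.1%) rose and 0 fell at a limma adjusted p under 0.05, while 11.7% of all genes rose and 10.5% fell. In antibiotic tumours 7 members (20%) rose and 2 fell, against 8.11% and 6.91% of all genes. In WT tumours 12 members (34.3%) rose and 0 fell, against 18.8% and 20.2% of all genes. Oas1a, Ifit2, Ifi27, Xaf1 and Irf9 rose in all 3 contrasts, which share the same 3 normal livers. In bulk tissue, fewer cells of a type and less RNA per cell cannot be told apart.

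The median difference of the 35 members from normal liver was 0.42 log2 in Tlr4-mutant tumours, 0.59 in antibiotic tumours and 0.65 in WT tumours. Over all 9053 genes the same medians were 0.02, -0.00 and -0.01. Zbp1, Ifit2, Irf8 and Gbp2 read below log2 4 in all normal livers and entered the list through tumours, as did Irf7 for the mutant and WT contrasts, so the medians, the counts of calls and the counts of separated members all include genes that had to be low in normal liver. Of these, Ifit2 was among the rises in all 3 tumour groups and Zbp1 among those in WT tumours. Every mutant tumour lay above every normal liver for 12 members and below for 2 (20.2% and 18.9% of all genes). For antibiotic tumours the counts were 12 and 5 (19.8% and 22.5% of all genes), and for WT tumours 13 and 1 (18.4% and 20% of all genes). The means were higher than in normal liver for 27 members and lower for 8 in mutant tumours (51.4% and 48.6% of all genes), for 28 and 7 in antibiotic tumours (49.9% and 50.1%), and for 29 and 6 in WT tumours (49.5% and 50.5%). The counts of members entirely above normal liver are 34.3%, 34.3% and 37.1% of the 35 members in mutant, antibiotic and WT tumours.

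**Figure D2:**
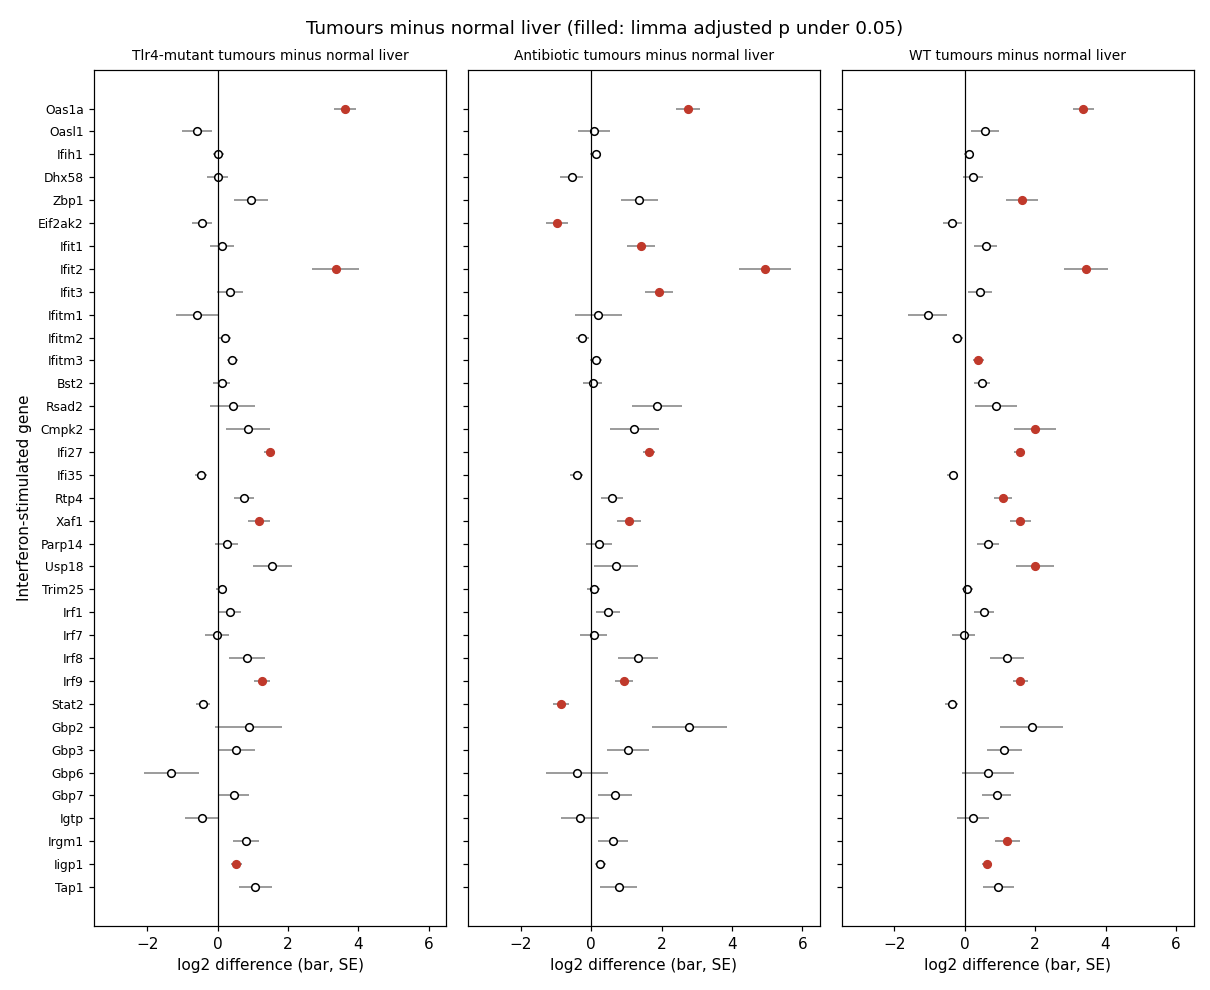
Log2 difference from normal liver (points) with its standard error (bars) for the 35 interferon-stimulated genes in Tlr4-mutant, antibiotic and WT tumours, filled where the limma adjusted p is under 0.05. Oas1a and Ifit2 lie farthest to the right in the Tlr4-mutant and WT panels. In the antibiotic panel Ifit2 lies farthest, followed by Gbp2 (2.79, not filled) and Oas1a (2.75).

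The oligoadenylate synthetases make short 2′-5′-linked adenylate chains that activate RNase L. Of 6 listed, only Oas1a and Oasl1 were bright enough to examine. Oas1a read 7.76, 8.13, 7.18, 8.11 and 8.21 (log2) in Tlr4-mutant tumours, 6.77, 7.98 and 6.29 in antibiotic tumours, 7.39 to 8.04 with a median of 7.52 in WT tumours, and 3.91, 4.32 and 4.55 in normal livers. All 15 tumours lay above all 3 normal livers by more than the range within any group. The rise was 3.62 ± 0.31 log2 in mutant tumours (SE; limma adjusted p = 1.58e-06), 2.75 ± 0.35 in antibiotic tumours (limma adjusted p = 0.000131) and 3.37 ± 0.29 in WT tumours (limma adjusted p = 1.31e-06). In WT tumours that is 10.4-fold. Oas1a belongs to a cluster of closely similar genes on chromosome 5, so its probe set may also read relatives.

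Oasl1, an enzymatically inactive relative that restrains translation of Irf7, was not called. It read 4.47, 3.89, 2.7, 3.41 and 3.57 in Tlr4-mutant tumours, 4.82, 4.63 and 3.36 in antibiotic tumours, 3.93 to 5.49 with a median of 4.55 in WT tumours, and 3.95, 4.18 and 4.44 in normal livers. It did not pass the test against normal liver in any tumour group. The mutant tumours were lower than the WT tumours by 1.15 ± 0.33 log2 on average, with 4 of 5 mutant values below the lowest WT value, but the limma adjusted p was 0.151.

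Sensors of foreign nucleic acid and the proteins that block translation formed the next group of 7. Ifit1, Ifit2 and Ifit3 bind RNA with unusual 5′ ends or cellular partners and lie next to each other on chromosome 19. Ifit2 read 5.46, 7.46, 6.33, 6.89 and 5.83 in Tlr4-mutant tumours, 6.12, 7.84 and 9.97 in antibiotic tumours, 5.70 to 7.42 with a median of 6.57 in WT tumours, and 2.34, 3.20 and 3.58 in normal livers. All tumours were bright and all normal livers dim, with every normal value under log2 4, so only a lower bound on the fold can be given. The level of Ifit2 in mutant tumours exceeded that of normal liver at least 5.26-fold (limma adjusted p = 0.00251). It was at least 15.8-fold higher in antibiotic tumours (limma adjusted p = 0.000557) and at least 5.61-fold higher in WT tumours (limma adjusted p = 0.00078). Without antibiotic tumour 30 the fitted antibiotic difference was 3.94 log2, against 4.94 with it.

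Ifit3 was called in antibiotic tumours. It read 7.25, 7.45, 6.99, 6.91 and 6.98 in Tlr4-mutant tumours, 7.59, 9.11 and 9.41 in antibiotic tumours, 6.59 to 7.82 with a median of 7.28 in WT tumours, and 6.28, 6.78 and 7.27 in normal livers. Antibiotic tumours 29 and 30 stood above every other array, while antibiotic tumour 28 lay inside the WT range. The difference from normal liver was 0.34 ± 0.37 log2 in mutant tumours (limma adjusted p = 0.523), 1.93 ± 0.41 in antibiotic tumours (limma adjusted p = 0.00648) and 0.44 ± 0.35 in WT tumours (limma adjusted p = 0.333). Antibiotic tumours exceeded WT tumours by 1.49 ± 0.35 log2 (limma adjusted p = 0.147), and mutant tumours fell short of antibiotic tumours by a difference of -1.59 ± 0.37 (limma adjusted p = 0.143), neither past the threshold. Leaving out antibiotic tumour 28 gave differences of 2.05 (limma adjusted p = 0.0135) and -2.14 (limma adjusted p = 0.00502). Whether Ifit3 was called between tumour groups therefore depends on that array.

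Ifit1 was also called in antibiotic tumours. It read 5.80, 6.51, 5.22, 5.34 and 5.38 in Tlr4-mutant tumours, 6.23, 7.60 and 6.99 in antibiotic tumours, 5.34 to 6.67 with a median of 6.20 in WT tumours, and 5.40, 5.19 and 5.98 in normal livers. The antibiotic tumours lay above all normal livers but overlapped both other tumour groups. Their rise over normal liver was 1.41 ± 0.39 log2 (limma adjusted p = 0.0255). It was lost without normal liver 1 or 2 (limma adjusted p = 0.0845 and 0.0954) and without antibiotic tumour 29 or 30 (limma adjusted p = 0.124 and 0.0531). Mutant minus antibiotic tumours was -1.29 ± 0.35 log2 (limma adjusted p = 0.223).

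Zbp1, a sensor of left-handed nucleic acid that can start necroptosis, read 5.08, 4.65, 3.69, 4.60 and 4.66 in Tlr4-mutant tumours, 3.98, 6.5 and 4.38 in antibiotic tumours, 4.51 to 5.94 with a median of 5.38 in WT tumours, and 3.42, 3.59 and 3.74 in normal livers. The normal livers were all below log2 4 and below every WT tumour. Zbp1 was at least 2.32-fold higher in WT tumours (limma adjusted p = 0.0105). The test was not passed in mutant (limma adjusted p = 0.16) or antibiotic tumours (limma adjusted p = 0.0918).

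Dhx58, a helicase of the RIG-I family without a signalling domain, was dim throughout. It read 5.20, 4.53, 4.18, 3.79 and 4.16 in Tlr4-mutant tumours, 4.11, 4.27 and 3.05 in antibiotic tumours, 4.07 to 4.93 with a median of 4.53 in WT tumours, and 4.38, 4.28 and 4.43 in normal livers. Its groups overlapped except that the antibiotic tumours lay below the normal livers. Antibiotic minus WT tumours was -0.78 ± 0.28 log2 (limma adjusted p = 0.229). Ifih1, the RNA sensor MDA5, passed no test, at 9.36 to 10.14 across all tumours against 9.54 to 9.74 in normal liver.

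Eif2ak2, the RNA-dependent kinase PKR that stops translation, gave conflicting readings. Its brightest probe set read 6.79, 6.47, 6.24, 5.96 and 5.66 in Tlr4-mutant tumours, 5.78, 5.80 and 5.48 in antibiotic tumours, 5.67 to 6.96 with a median of 6.38 in WT tumours, and 6.40, 7.07 and 6.5 in normal livers. By this probe set the antibiotic tumours lay below the normal livers, with a difference of -0.97 ± 0.32 log2 (limma adjusted p = 0.0498). That call was lost when any 1 of the 6 arrays was left out, with limma adjusted p between 0.0697 (without antibiotic tumour 28) and 0.182 (without normal liver 2). The gene's other kept probe sets turned the direction: antibiotic minus normal was 1.56 log2 by the second (limma adjusted p = 0.0128) and 1.16 by the third. The mean of all its kept probe sets, the brightest included, gave 0.58 (limma adjusted p = 0.179). No direction can be given for Eif2ak2 from these arrays.

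**Figure D3:**
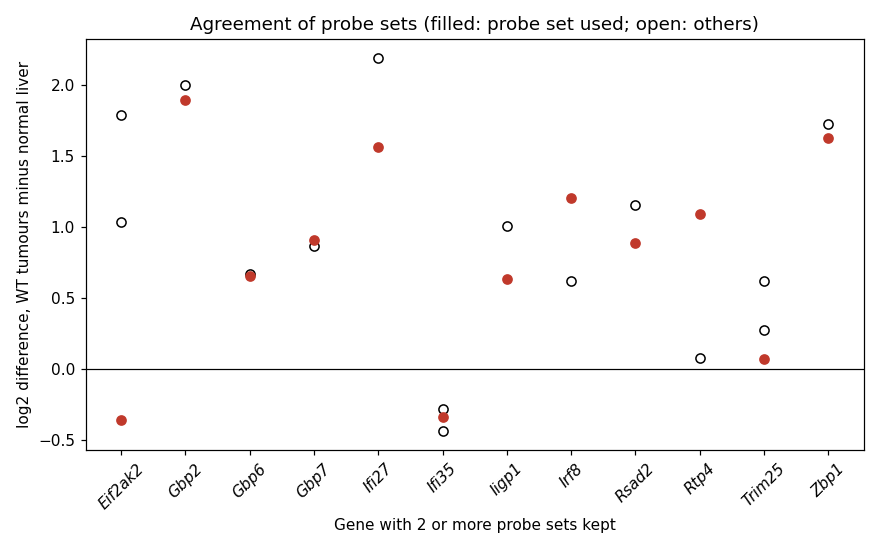
Log2 difference of WT tumours from normal liver by probe set for the 12 interferon-stimulated genes with several kept probe sets. Filled points are the probe set used and open points the others. Eif2ak2 has its used probe set at -0.36 and others at 1.03 and 1.79, while the rest keep 1 sign.

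Membrane restriction factors block virus entry or release. Ifitm3, which traps viruses in endosomes, read 12.95, 12.69, 12.56, 12.75 and 12.69 in Tlr4-mutant tumours, 12.56, 12.78 and 11.99 in antibiotic tumours, 12.49 to 12.87 with a median of 12.73 in WT tumours, and 12.42, 12.16 and 12.34 in normal livers. The WT tumours lay narrowly above the normal livers. Their rise was 0.39 ± 0.15 log2 (limma adjusted p = 0.0467). The call was lost without any one normal liver and without WT tumour 16, 18, 20, 21 or 22, with limma adjusted p from 0.0612 (without WT tumour 16) to 0.187 (without normal liver 2).

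Ifitm2, a close relative on chromosome 7, was the 1 member whose mutant tumours all lay above the WT tumours, a separation seen in 0.884% of all genes. It read 11.13, 10.24, 10.37, 10.39 and 10.65 in Tlr4-mutant tumours, 10.19, 10.24 and 9.84 in antibiotic tumours, 9.98 to 10.21 with a median of 10.12 in WT tumours, and 10.43, 10.24 and 10.36 in normal livers. The lowest mutant value exceeded the highest WT and antibiotic values by less than 0.05 log2, and the mutant and normal ranges overlapped. Mutant minus WT tumours was 0.43 ± 0.13 log2 (limma adjusted p = 0.169) and mutant minus antibiotic tumours was 0.47 ± 0.16 (limma adjusted p = 0.336). Bst2, which tethers budding virus, read 9.60 to 11.12 over the 15 tumours against 10.08 to 10.47 in normal liver and passed no test. All WT tumours, at 10.52 to 11.12, lay above all normal livers, while the mutant and antibiotic tumours overlapped them. Ifitm1 was dim and scattered, at 3.26 to 6.17 over the tumours against 4.85 to 5.64 in normal liver.

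Of the other antiviral and less known effectors, 7 of 11 were examined, and 2 rose in mutant tumours (11.7% of all genes rose), 2 in antibiotic tumours (8.11%) and 4 in WT tumours (18.8%). Ifi27, a small hydrophobic protein of mitochondria and the nuclear envelope, rose in all 3 tumour groups. It read 11.22, 10.72, 10.88, 11.03 and 11.11 in Tlr4-mutant tumours, 11.43, 11.25 and 10.78 in antibiotic tumours, 10.81 to 11.32 with a median of 11.07 in WT tumours, and 9.63, 9.30 and 9.61 in normal livers. The lowest tumour lay more than 1 log2 unit above the highest normal liver, and the 3 tumour groups overlapped fully. Its rise was 1.48 ± 0.16 log2 in mutant tumours (limma adjusted p = 1.74e-05), 1.64 ± 0.18 in antibiotic tumours (limma adjusted p = 4.03e-05) and 1.56 ± 0.15 in WT tumours (limma adjusted p = 4.02e-06). A second probe set gave 2.28, 2.32 and 2.20 log2 in the same order.

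Xaf1, a partner of the apoptosis inhibitor XIAP, read 8.34, 8.53, 7.24, 7.38 and 7.45 in Tlr4-mutant tumours, 7.22, 8.17 and 7.67 in antibiotic tumours, 7.96 to 8.85 with a median of 8.08 in WT tumours, and 6.71, 6.97 and 6.18 in normal livers. All tumours lay above all normal livers. The rise was 1.17 ± 0.31 log2 in mutant tumours (limma adjusted p = 0.0143), 1.07 ± 0.35 in antibiotic tumours (limma adjusted p = 0.0488) and 1.57 ± 0.29 in WT tumours (limma adjusted p = 0.000973). The mutant call was lost without normal liver 3 (limma adjusted p = 0.0846). The antibiotic call was lost without normal liver 1, 2 or 3 (limma adjusted p = 0.104, 0.0641 and 0.172) and without antibiotic tumour 29 or 30 (limma adjusted p = 0.193 and 0.0847). It was also lost with no level filter, centred arrays, quantile normalization, array weights or only the groups compared (limma adjusted p between 0.0558 and 0.077).

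Rtp4, a chaperone of membrane receptors with an antiviral role, read 9.46, 9.38, 8.59, 8.52 and 8.54 in Tlr4-mutant tumours, 8.49, 9.05 and 8.67 in antibiotic tumours, 8.58 to 9.89 with a median of 9.23 in WT tumours, and 7.92, 8.38 and 8.14 in normal livers. Every tumour lay above every normal liver, and WT tumours rose by 1.09 ± 0.26 log2 (limma adjusted p = 0.00415). A second probe set of Rtp4 gave 0.08 log2 (limma adjusted p = 0.732). Cmpk2, a mitochondrial nucleotide kinase encoded beside Rsad2, read 5.47, 6.13, 3.92, 3.77 and 3.33 in Tlr4-mutant tumours, 4.37, 5.86 and 4.41 in antibiotic tumours, 4.14 to 6.52 with a median of 5.75 in WT tumours, and 3.46, 3.34 and 4.18 in normal livers. Its lowest WT tumour lay just under the highest normal liver, and the mutant tumours fell into 2 high and 3 low values. Cmpk2 rose by 1.99 ± 0.59 log2 in WT tumours (limma adjusted p = 0.015), a call lost without normal liver 1 or 2 (limma adjusted p = 0.0585 and 0.0664).

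Rsad2 (viperin), which makes a chain-terminating nucleotide, ranged from 4.19 to 6.68 in Tlr4-mutant tumours, 5.40 to 8.0 in antibiotic tumours and 4.99 to 7.68 in WT tumours, against 4.70 to 5.05 in normal liver. Parp14, an ADP-ribosyltransferase, ranged from 6.47 to 7.71, 6.68 to 8.05 and 7.13 to 8.11 in the same 3 tumour groups, against 6.81 to 7.10 in normal liver. Neither passed the test in any contrast. Ifi35 was bright in all samples. It read 10.69 to 11.01 in mutant, 10.61 to 11.21 in antibiotic and 10.65 to 11.47 in WT tumours, against 11.23 to 11.45 in normal liver. All mutant and antibiotic tumours lay below all normal livers (limma adjusted p = 0.052 and 0.142), while WT tumours overlapped them. Ifi35 too passed no test.

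Usp18, the protease that removes Isg15 and damps type I receptor signalling, read 7.94, 7.96, 8.13, 7.56 and 8.13 in Tlr4-mutant tumours, 6.81, 7.89 and 6.63 in antibiotic tumours, 7.09 to 10.21 with a median of 7.90 in WT tumours, and 6.52, 5.96 and 6.70 in normal livers. WT tumours 17 and 19 stood far above the rest at 9.72 and 10.21, whereas the other 5 WT tumours lay between 7.09 and 8.30. The WT rise was 1.99 ± 0.53 log2 (limma adjusted p = 0.00799). The mutant difference was 1.55 ± 0.56 log2 (limma adjusted p = 0.0561), with all mutant tumours above all normal livers. Without WT tumours 17 and 19 together, the WT rise of Usp18 was 1.36 ± 0.30 log2 (limma adjusted p = 0.00398). In that fit 17 members were called in WT tumours against normal liver (16 higher and 1 lower), and the share of all genes called is not given here. Trim25, a ubiquitin ligase that activates RIG-I, read 10.02 to 10.83 over the tumours against 10.30 to 10.37 in normal liver and passed no test. Another bright probe set of Trim25 gave differences from normal liver of 0.60 log2 in mutant, 0.70 in antibiotic and 0.62 in WT tumours, where the one used gave 0.11, 0.07 and 0.07.

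**Figure D4:**
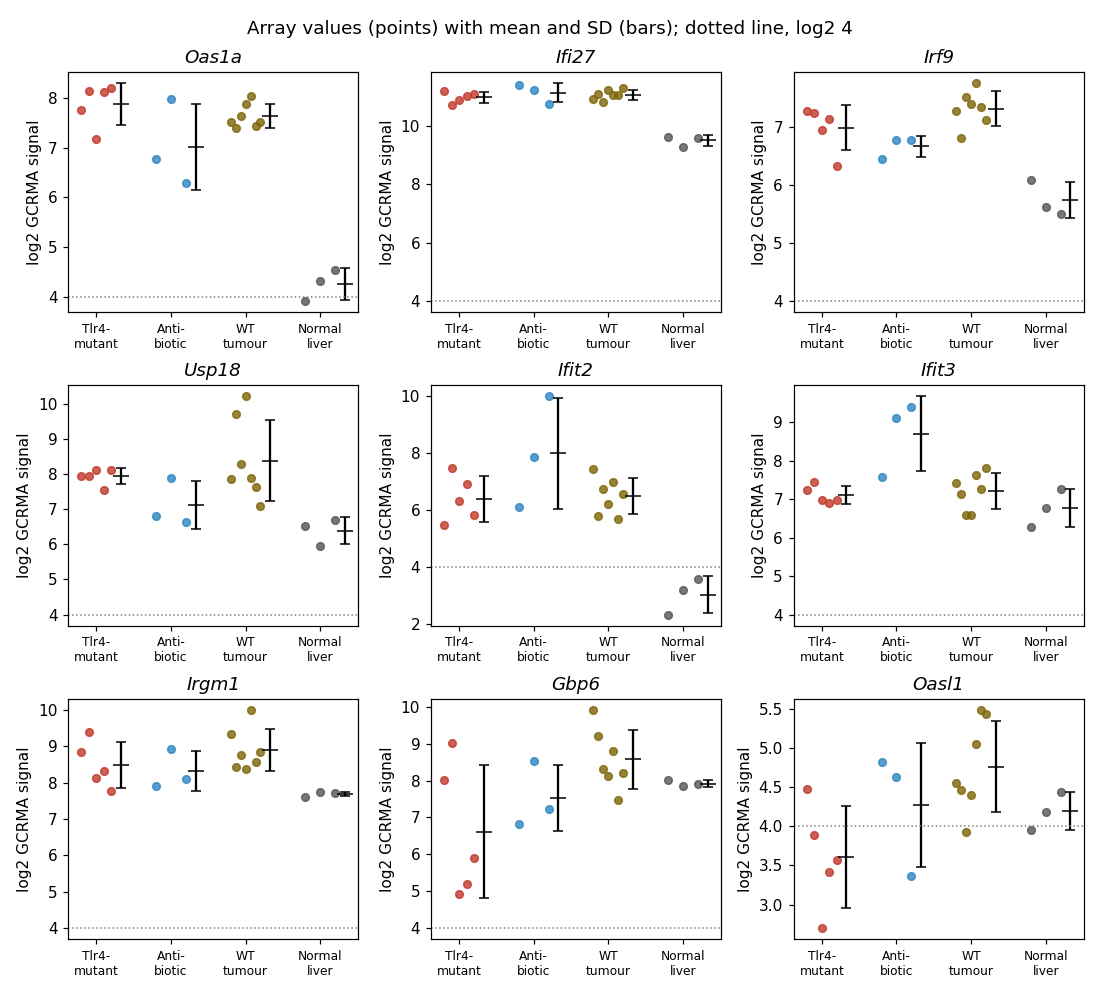
Log2 level of 9 interferon-stimulated genes on every array (points) by group, with mean and SD (bars: 5 Tlr4-mutant, 3 antibiotic and 7 WT tumours, 3 normal livers). The dotted line marks log2 4, and each panel has its own vertical scale. Usp18 has 2 high WT tumours, and Gbp6 has 3 low mutant tumours at 4.93 to 5.91.

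Among the 5 transcription factors, Irf9, the DNA-binding subunit that partners Stat2, rose in all 3 tumour groups. It read 7.28, 7.24, 6.94, 7.13 and 6.33 in Tlr4-mutant tumours, 6.46, 6.78 and 6.77 in antibiotic tumours, 6.81 to 7.76 with a median of 7.35 in WT tumours, and 6.08, 5.63 and 5.50 in normal livers. All 15 tumours lay above all normal livers, and all antibiotic tumours lay below all WT tumours. The rise was 1.25 ± 0.23 log2 in mutant tumours (limma adjusted p = 0.00143), 0.93 ± 0.25 in antibiotic tumours (limma adjusted p = 0.0231) and 1.58 ± 0.21 in WT tumours (limma adjusted p = 8.49e-05). The antibiotic call was lost without normal liver 2 or 3 (limma adjusted p = 0.0774 and 0.0898) or antibiotic tumour 29 or 30 (limma adjusted p = 0.0837 and 0.0555). Antibiotic minus WT tumours was -0.65 ± 0.21 log2 (limma adjusted p = 0.199).

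Stat2, the STAT of that complex, was near the detection level everywhere. It read 3.86, 3.50, 3.86, 3.85 and 3.80 in Tlr4-mutant tumours, 3.51, 3.27 and 3.21 in antibiotic tumours, 3.46 to 4.58 with a median of 3.79 in WT tumours, and 4.11, 4.20 and 4.27 in normal livers. All mutant and antibiotic tumours were under log2 4, and the antibiotic tumours were at least 1.14-fold lower than normal liver (limma adjusted p = 0.0159). That call was lost without normal liver 2 or 3 (limma adjusted p = 0.0509 and 0.0559) or antibiotic tumour 29 (limma adjusted p = 0.0575). Irf1, Irf7 and Irf8 passed no test. Irf1 read 7.19 to 8.52 over the tumours against 6.97 to 7.61 in normal liver, and Irf7 stayed under log2 5 on all arrays.

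The interferon-gamma-inducible GTPases, which attack the vacuoles of intracellular pathogens, numbered 7. Irgm1, a regulator of the other family members, read 8.84, 9.40, 8.13, 8.31 and 7.78 in Tlr4-mutant tumours, 7.91, 8.94 and 8.11 in antibiotic tumours, 8.36 to 10.00 with a median of 8.77 in WT tumours, and 7.61, 7.74 and 7.71 in normal livers. Every tumour lay above every normal liver. The WT rise of 1.21 ± 0.36 log2 (limma adjusted p = 0.0153) was lost without normal liver 1 (limma adjusted p = 0.0555). The mutant difference was 0.81 ± 0.38 log2 (limma adjusted p = 0.137) and the antibiotic one 0.63 ± 0.43 (limma adjusted p = 0.323).

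Iigp1 (Irga6), a GTPase that coats such vacuoles, rose in mutant and WT tumours. It read 12.85, 13.21, 13.10, 13.08 and 13.01 in Tlr4-mutant tumours, 12.82, 13.04 and 12.47 in antibiotic tumours, 12.94 to 13.53 with a median of 13.11 in WT tumours, and 12.47, 12.49 and 12.59 in normal livers. The mutant and WT tumours lay above all normal livers, and antibiotic tumour 30 did not. The rise was 0.54 ± 0.15 log2 in mutant tumours (limma adjusted p = 0.0159) and 0.64 ± 0.14 in WT tumours (limma adjusted p = 0.00241). The mutant call was lost without normal liver 1 or 2 (limma adjusted p = 0.065 and 0.0603).

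Gbp6, a guanylate-binding protein, read 8.0, 9.01, 4.93, 5.19 and 5.91 in Tlr4-mutant tumours, 6.81, 8.52 and 7.23 in antibiotic tumours, 7.46 to 9.92 with a median of 8.31 in WT tumours, and 8.02, 7.85 and 7.90 in normal livers. Mutant tumours 25, 26 and 27 lay below every other array, while mutant tumours 23 and 24 lay inside the WT range. Mutant minus WT tumours was -1.96 ± 0.63 log2 (limma adjusted p = 0.182), and a second probe set gave -1.34 log2. Gbp2 spread widely, from 3.15 to 6.41 in mutant tumours, 3.06 to 7.26 in antibiotic tumours and 3.38 to 6.34 in WT tumours, against 2.55 to 3.54 in normal liver. Gbp3, Gbp7 and Igtp passed no test, and the median levels of Gbp3 and Gbp7 in each tumour group were above those of normal liver. For Igtp they were below, at 9.80 in mutant, 9.64 in antibiotic and 10.275 in WT tumours, against 10.38 in normal liver. The mean of Igtp in WT tumours was above that of normal liver, at 10.58 against 10.34. Tap1, a subunit of the peptide transporter for class I antigen presentation, read 3.66 to 5.96 over the tumours against 3.33 to 4.03 in normal liver.

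Tumour groups were then compared with each other to ask whether the Tlr4 mutation or antibiotics went with a different level of these genes. In Tlr4-mutant against WT tumours, 0 of 35 members rose and 0 fell by limma, where 0.144% and 0.122% of all genes did. At an unadjusted p under 0.05, 1 member was higher (Ifitm2) and 3 were lower (Oasl1, Cmpk2 and Gbp6), against 9.41% and 7.29% of all genes. In antibiotic against WT tumours the adjusted counts were 0 and 0, against 0.011% and 0.0773% of all genes. At an unadjusted p under 0.05, 4 members were higher there (Ifit1, Ifit2, Ifit3 and Ifitm1) and 6 lower (Dhx58, Eif2ak2, Usp18, Irf9, Stat2 and Iigp1), against 7.59% and 7.89% of all genes. In Tlr4-mutant against antibiotic tumours the adjusted counts were 0 and 0, against 0.122% and 0.11% of all genes. At an unadjusted p under 0.05, 3 members were higher (Oas1a, Ifitm2 and Stat2) and 4 lower (Ifit1, Ifit2, Ifit3 and Rsad2), against 6.11% and 4.19% of all genes.

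The sign of the differences from WT tumours leaned one way, but no member passed the test and the lean itself was not tested. All members are read on the same arrays, so counts of members are not counts of separate observations. Against WT tumours, mutant tumours had the lower mean for 28 of 35 members and the higher for 7, where 46.6% of all genes were lower and 53.4% higher. Antibiotic tumours had the lower mean for 25 and the higher for 10, where 48.1% of all genes were lower and 51.9% higher. Between mutant and antibiotic tumours, 19 members were lower and 16 higher in mutant tumours, where 49.5% of all genes were lower and 50.5% higher. Few members separated the tumour groups entirely. Ifitm2 was above and 0 members were below in mutant against WT tumours (0.884% and 0.729% of all genes). In antibiotic against WT tumours 0 members were above and Irf9 was below (1.8% and 2.24%), and in mutant against antibiotic tumours Ifitm2 was above and Ifit3 below (3.71% and 2%). The median member difference was -0.33 log2 for mutant minus WT tumours and -0.25 for antibiotic minus WT tumours, and both contrasts share the 7 WT tumours. For mutant minus antibiotic tumours it was -0.08. All 7 GTPases had lower means in mutant than in WT tumours, with a median of -0.59 log2. In antibiotic tumours the 3 Ifit genes and Rsad2 had higher means than in WT tumours while Oas1a, Usp18 and Irf9 had lower ones. For Usp18, WT tumours 17 and 19 raise the WT mean to 8.39. Its medians were 6.81 in antibiotic and 7.90 in WT tumours.

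**Figure D5:**
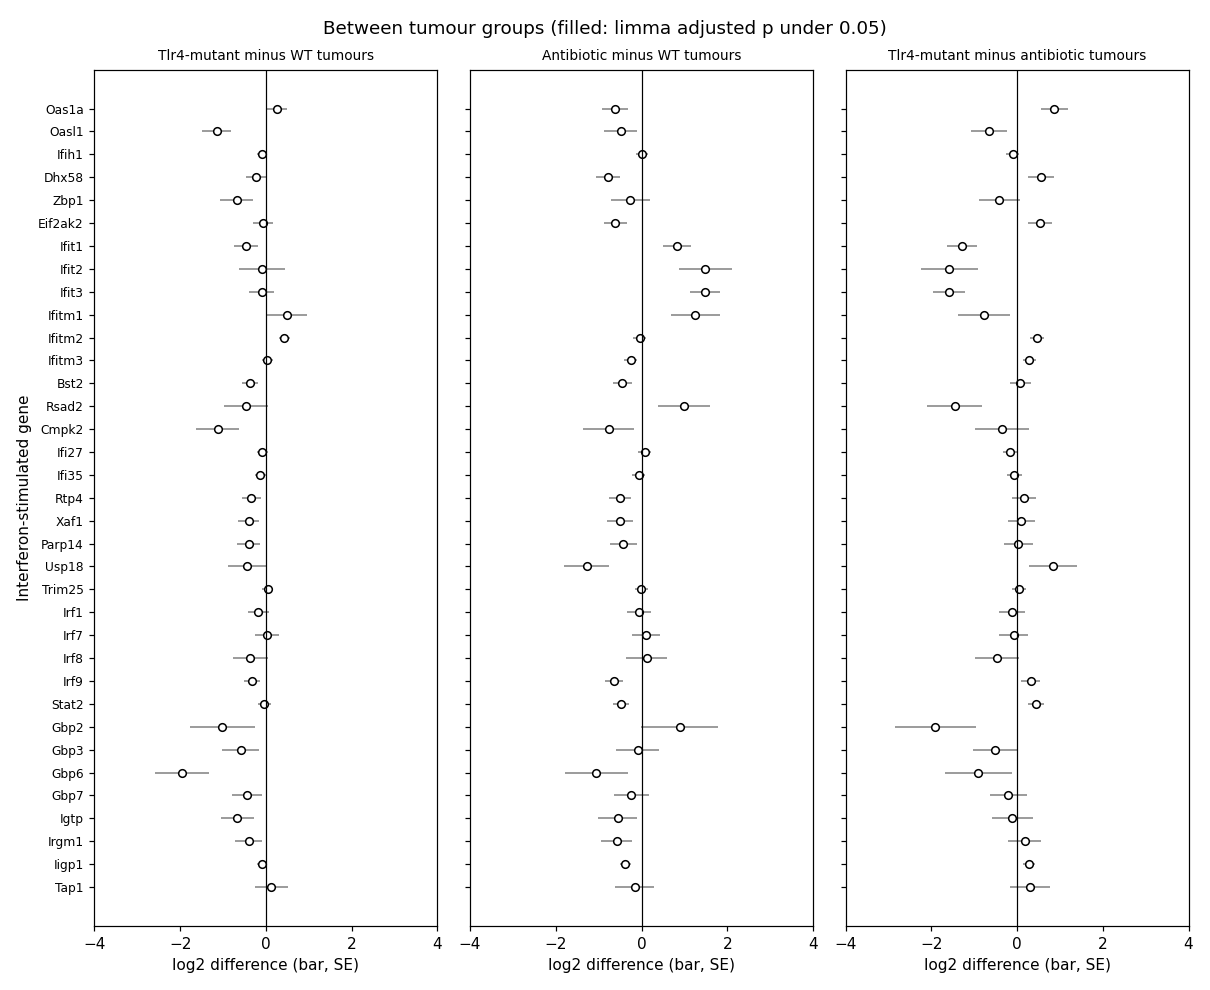
Log2 difference between tumour groups (points) with its standard error (bars) for the 35 interferon-stimulated genes. No point is filled, since 0 members had a limma adjusted p under 0.05. Ifit1, Ifit2 and Ifit3 lie to the right for antibiotic minus WT and to the left for mutant minus antibiotic tumours.

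Single tumours of 1 group also differed from each other. The median member had an SD of 0.446 log2 across the 7 WT tumours, against 0.312 for the median gene of all 9053. WT tumour 20 was the highest of the 15 tumours for 9 members (25.7%), among them Xaf1, Irf9, Igtp, Irgm1 and Iigp1, while it was the highest for 4.41% of all genes. Its members lay 0.50 log2 above the tumour median on average over the list (median deviation). Antibiotic tumour 29 was likewise the highest for 9 members (25.7%), among them Ifit1, Rsad2, Irf1, Gbp3, Gbp7 and Tap1, and the highest for 7.98% of all genes.

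The 2 other antibiotic tumours were low for most members, with median deviations of -0.45 in tumour 28 and -0.36 in tumour 30, against 0.35 in tumour 29. Antibiotic tumour 30 was the lowest of 15 for 11 members (31.4%, against 12.5% of all genes) and yet the highest for Ifit2, Ifit3 and Gbp2. Mutant tumour 25 was the lowest for 6 members (17.1%, against 2.41% of all genes): Oasl1, Zbp1, Ifit1, Parp14, Gbp3 and Gbp6. The 7 GTPases had median deviations of 0.72 in mutant tumour 24, 1.29 in antibiotic tumour 29, and 0.78 and 1.39 in WT tumours 16 and 20. Their lowest medians among tumours were -0.76 in mutant tumour 25 and -0.64 in antibiotic tumour 28.

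Upstream of the list, the ligands were not seen. Ifnb1 and Ifng, which encode interferon-beta and interferon-gamma, reached at most 2.33 and 1.99 on any array. Of 13 genes for interferons and receptors, 5 were examined and 3 of them rose in each tumour group. The shares of all genes that rose were 11.7% in mutant, 8.11% in antibiotic and 18.8% in WT tumours. These 3 include Ifngr2, which passed the level filter through tumours and so had to be low in normal liver. Ifngr1, the ligand-binding chain of the interferon-gamma receptor, rose by 2.41 ± 0.37 log2 in Tlr4-mutant tumours, 2.03 ± 0.41 in antibiotic tumours and 2.93 ± 0.35 in WT tumours. Its values were 7.26 to 8.70, 7.55 to 7.87 and 7.90 to 9.51 in those groups, against 5.50 to 5.89 in normal liver, with no overlap. Ifngr2, its partner chain, was under log2 4 in all normal livers and at least 3.08-fold higher in mutant tumours, at least 1.82-fold in antibiotic tumours and at least 4.55-fold in WT tumours. Il10rb, a chain shared by interleukin-10 and lambda interferon receptors, rose by 1.43, 1.60 and 1.74 log2 in the same order. Ifnar1 and Ifnar2 did not pass the test, at 6.31 to 7.03 and 9.65 to 10.43 in tumours against 6.15 to 6.61 and 9.66 to 10.19 in normal liver.

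Further along the pathway, 9 of 11 genes of JAK-STAT signalling and its feedback were examined. Of these only Stat3 was called, as a rise in mutant tumours against normal liver (0.65 ± 0.20 log2, limma adjusted p = 0.0298). That share is near the 11.7% of all genes that rose there. Of 9 examined genes that induce type I interferon, Irf3 and Traf6 fell in WT tumours, by differences of -0.56 and -0.65 log2, and this share is near the 20.2% of all genes that fell. Of 11 immunoproteasome and class I presentation genes examined, 5 rose in mutant tumours (11.7% of all genes rose), 1 in antibiotic tumours, a share near the 8.11% of all genes, and 5 in WT tumours (18.8% of all genes). Psmb8, an immunoproteasome subunit, rose by 1.30 log2 in mutant and 1.38 in WT tumours. Among 34 further interferon-stimulated genes, 9 rose and 1 fell in mutant tumours, where 11.7% of all genes rose and 10.5% fell. In antibiotic tumours 3 rose and 1 fell, a rising share near the 8.11% of all genes (6.91% fell). In WT tumours 12 rose and 3 fell, where 18.8% of all genes rose and 20.2% fell. Plscr1, a phospholipid scramblase, rose by 2.37, 2.30 and 2.46 log2 in the same order, and Ly6e, a membrane protein that limits coronavirus entry, by 1.58, 1.34 and 2.11. Casp4 and Lgals3bp, among the rises in mutant and WT tumours, read under log2 4 in all normal livers. They passed the level filter through tumours, so they had to be low in normal liver. None of these lists had a call between tumour groups.

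All 4 interferon-induced chemokines were examined. Cxcl9, a ligand of the chemokine receptor Cxcr3 on T cells, rose by 2.72 ± 0.83 log2 in mutant tumours (limma adjusted p = 0.0287), 2.92 ± 0.93 in antibiotic tumours (limma adjusted p = 0.0454) and 3.74 ± 0.79 in WT tumours (limma adjusted p = 0.00206). Its highest values were 11.62 in mutant tumour 24, 11.87 in antibiotic tumour 29, and 11.85 and 11.37 in WT tumours 16 and 20. Cxcl10, Cxcl11 and Ccl5 rose in WT tumours, Cxcl11 by 1.25 log2, Cxcl10 at least 3.36-fold and Ccl5 at least 1.39-fold. Of all genes, 11.7% rose in mutant, 8.11% in antibiotic and 18.8% in WT tumours. Cxcl10 and Ccl5 read under log2 4 in all normal livers and passed the level filter through tumours, so they had to be low there. In direct comparison of the tumour groups, none of the 4 chemokines was called.

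Some markers of immune cells also differed between tumours and normal liver, while others did not. The class II genes H2-Aa, H2-Ab1 and H2-Eb1 rose in antibiotic and WT tumours, and H2-Aa in mutant tumours. The other dendritic cell markers examined, Cd74 and Zbtb46, were not called. Zbtb46 averaged 4.55 in mutant, 4.03 in antibiotic and 4.18 in WT tumours, against 4.27 in normal liver. Itgax, Flt3, Xcr1 and Clec9a were not examined. The 5 dendritic cell markers examined of 9 summed to 8.14 to 9.77 in mutant, 8.37 to 11 in antibiotic and 8.26 to 10.8 in WT tumours, against 7.27 to 7.63 in normal liver. The neutrophil genes S100a8 and S100a9 rose in mutant and WT tumours and are the 2 of 7 neutrophil markers examined (Ly6g, Csf3r, Cxcr2, Ngp and Camp had no probe set of their own above the level filter). The summed level of S100a8 and S100a9 was 7.03 to 9.20, 4.34 to 6.81 and 4.38 to 8.26 in mutant, antibiotic and WT tumours, against 3.56 to 3.75 in normal liver. None of the 11 T and NK cell markers passed the level filter, nor did Siglech, a defining marker of plasmacytoid dendritic cells, at most 2.32 on any array. The 7 of 8 macrophage and Kupffer cell markers examined summed to 9.44 to 11.7 in mutant, 8.57 to 11.4 in antibiotic and 7.62 to 11.9 in WT tumours, against 9.17 to 10.6 in normal liver. Their median difference from normal liver was 0.41 log2 in mutant, 0.31 in antibiotic and 0.16 in WT tumours. Of these markers only Cd68 was called, in WT tumours. Cd163 averaged 4.26 in mutant, 3.89 in antibiotic and 3.54 in WT tumours, against 5.98 in normal liver. Clec4f averaged 6.20, 5.59 and 5.12 in the same order, against 6.23 in normal liver, so its mutant mean was nearly level with normal. The 4 of 8 plasmacytoid markers examined, which include the members Bst2 and Irf8, summed to 11.2 to 12.6 in mutant, 10.2 to 12.8 in antibiotic and 11.8 to 13.5 in WT tumours, against 10.4 to 10.7 in normal liver. Ly6d, called in all 3 tumour groups, read 9.06 to 12.17 in mutant, 3.17 to 12.26 in antibiotic and 10.36 to 13.10 in WT tumours, against 2.63 to 3.15 in normal liver. Tcf4 was called in mutant and WT tumours. The plasmacytoid sum is carried mostly by Ly6d and Bst2, so a higher sum is not shown to mean more of these cells. Like Siglech, Ccr9 and Il3ra stayed below the level filter, at most 3.45 and 3.49 on any array. Clec4c was not examined either. Ly6d, Cd68, S100a8 and S100a9 read under log2 4 in all normal livers. They passed the level filter through tumours, so they had to be low in normal liver. Jchain, the 1 of 6 B and plasma cell markers examined, rose by 3.64 ± 0.99 log2 in mutant tumours (limma adjusted p = 0.0166) and was not called in antibiotic (limma adjusted p = 0.683) or WT tumours (limma adjusted p = 0.172). The part of these cells in the rises of Oas1a, Ifit2 and the other members was not tested.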

How the data were processed

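Mouse liver and tumour RNA was measured on 18 one-colour Affymetrix arrays. The deposited values are log2 intensities made by the authors with GCRMA, per the submitters' processing notes; its version is not given in the sources used here. No scanner signals were used, so the number of arrays limits the precision. Of 45101 probe sets, 34945 list 1 gene symbol, 932 several and 9160 none, and 64 are array controls; those reading above log2 4 on at least 3 arrays were kept (16663), and each of 9053 genes took its probe set of highest mean. In R 4.3.3, limma 3.58.1 estimated the 4 group means from the 18 arrays together, and 6 contrasts were tested two-sided, with Benjamini-Hochberg adjustment over all 9053 genes and a call at an adjusted p under 0.05. The fit was tested on simulated data. A group under log2 4 on all its arrays gives a bound, taken against log2 4. The members and lists were chosen with earlier results of these data known. Values on every array are given for members called in any contrast and for the 3 of smallest p in each contrast between tumour groups, and other members by range. Alternatives covered filters, probe sets, scaling, array weights, the groups fitted and single arrays.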

Additional observations from a re-analysis of the deposited data

Results flagged for a closer look

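Values of the 35 members were screened for single arrays far from the rest of their group, in 70 sets of values (Tlr4-mutant tumours and WT tumours), and 8 stood out; chance gives about 1 in 20. Mutant tumour 24 was the highest of its group for Irf8, at 4.69 with the next at 3.96, and for Gbp2, at 6.41 with the next at 3.53. It was the lowest for Stat2, at 3.50 with the next at 3.80. WT tumour 20 was the lowest for Ifitm2, at 9.98 with the next at 10.12, and the highest for Xaf1, at 8.85 with the next at 8.24. WT tumour 17 was the highest for Rsad2, at 7.68 with the next at 6.05. WT tumour 22 was the highest for Irf7, at 4.84 with the next at 3.64, and for Stat2, at 4.58 with the next at 3.84.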

How the results depend on the processing

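No paired analysis was possible because the groups share no replicate numbers. Array weights gave 1 member called between Tlr4-mutant and WT tumours (Oasl1, a difference of -1.66 log2, limma adjusted p = 0.0253), 16 in mutant tumours against normal liver (11 higher, 5 lower) and 22 in WT tumours against normal liver (20 higher, 2 lower). Fitting only the groups compared gave 13 in mutant tumours against normal liver (11 higher, 2 lower). Shares of all genes called with these settings or with arrays left out are not given here, so these counts have no background beside them. With only the groups compared, Ifit3, Ifit1 and Xaf1 lost their calls in antibiotic tumours against normal liver (limma adjusted p = 0.0657, 0.068 and 0.076). Ifitm3 in WT tumours lost its call with no level filter, the second probe sets or centred arrays (limma adjusted p = 0.0563, 0.0514 and 0.0889), and Eif2ak2 in antibiotic tumours with no level filter or with trend and robust settings (limma adjusted p = 0.0715 and 0.0517). Leaving out 1 array gave 5 to 8 calls in mutant, 4 to 12 in antibiotic and 9 to 15 in WT tumours against normal liver. The antibiotic count was 4 without normal liver 2 or antibiotic tumour 29. Between tumour groups it gave 0 to 0 for mutant against WT, 0 to 1 for antibiotic against WT and 0 to 1 for mutant against antibiotic tumours. Eif2ak2 in antibiotic tumours against normal liver turned to 0.583 log2 for the mean of its probe sets and to 1.56 with the second probe set. Of 686 recomputed gene values, 632 kept direction and call, 49 lost the call, 3 gained it and 2 reversed. The causes were not tested. Dim members such as Stat2 and Irf7 lie near the detection level, which limits their folds.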
